A study of Cricetulus griseus with 27 samples.

Results

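Small RNA was compared between microparticles (MPs) and the cells that shed them in an osmotically stressed culture of CHO-K1, a line of Chinese hamster ovary origin that is widely used to make recombinant proteins. The comparison takes 3 MP libraries and 3 cell libraries of 27 in the study, chosen by their culture and fraction labels. All 6 come from 15 mL cultures with 6 mM glutamine, to which 60 mM NaCl (a rise of 120 mOsm/L) was added when the culture began, and which were harvested on day 3. Ammonia culture (9 mM NH4Cl in place of the added NaCl) is used below as the most similar comparison, with 3 MP and 3 cell libraries of its own. MPs and cells share both kit (TruSeq Small RNA) and sequencing pool, as do all 18 libraries of the stressed cultures, exosomes included. The labels call the replicates biological, and they do not say how MPs were separated from cells and exosomes.

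MPs are vesicles that bud outward from the plasma membrane and carry proteins, lipids and RNA of the cell that made them. A miRNA is cut from a hairpin precursor, and usually the guide arm is loaded into an Argonaute protein and represses mRNAs that match its seed, while the passenger arm is mostly lost. Vesicle RNA is studied in cell culture because it can pass between cells and because medium can be sampled without breaking them. In CHO cells miRNAs have been used as engineering targets for growth, survival and protein yield, and added salt is a common model of the rise in osmolarity during fed-batch culture.

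The deposited table holds read counts for 4815 mature miRNA entries, each named by species: 351 hamster (cgr), 1776 mouse (mmu), 405 rat (rno) and 2283 human (hsa). At least 1 count was found in the 6 libraries for 597 entries. A miRNA can stand under several species names, and near-identical family members can share reads, so values of single paralogs and species versions are uncertain. Levels are given as CPM, counts per 1000000 counts of the library, with replicates in the order 1, 2, 3. CPM is a share of a library: less of a miRNA per vesicle and more of all other miRNAs cannot be told apart, nor can fewer vesicles and less RNA in each.

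The MP libraries were smaller and held fewer kinds of miRNA. Total counts were 8219782, 8283519 and 10374430 in cells and 378397, 1103990 and 973076 in MPs. The number of entries with a count was 480, 518 and 429 in cells and 142, 180 and 177 in MPs. With every library thinned to 378397 counts, the expected number was 393, 422 and 346 in cells and 142, 139.8 and 132 in MPs, so the MP libraries stayed below all cell libraries at equal depth. The difference of the means was -249 entries (138 ± 5.15 in MPs and 387 ± 38.2 in cells, SD, n = 3 each). The exact two-sided permutation p was 0.1, the smallest that 3 against 3 libraries can give.

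Within an MP library, a miRNA that was abundant in cells was mostly either high or almost missing. Of 216 entries that averaged at least 50 CPM in cells, 57, 57 and 51 were at 500 CPM or more in MPs replicates 1, 2 and 3. Another 100, 83 and 85 had no count at all, and 50, 67 and 75 had a count but stayed below 20 CPM, which was at most 7, 12 and 16 counts in these libraries. Only 9, 9 and 5 lay between 20 and 500 CPM. In the cell libraries that middle range held 110, 100 and 115 of the same entries, and counts of 0 occurred for 2 of them, in replicate 3 alone. Because the 216 were chosen by their mean in cells, low values and zeros there are few by that choice. The cells are thus not an even comparison for the MP libraries. The limits of 20 and 500 CPM were chosen after the values were seen.

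**Figure D1:**
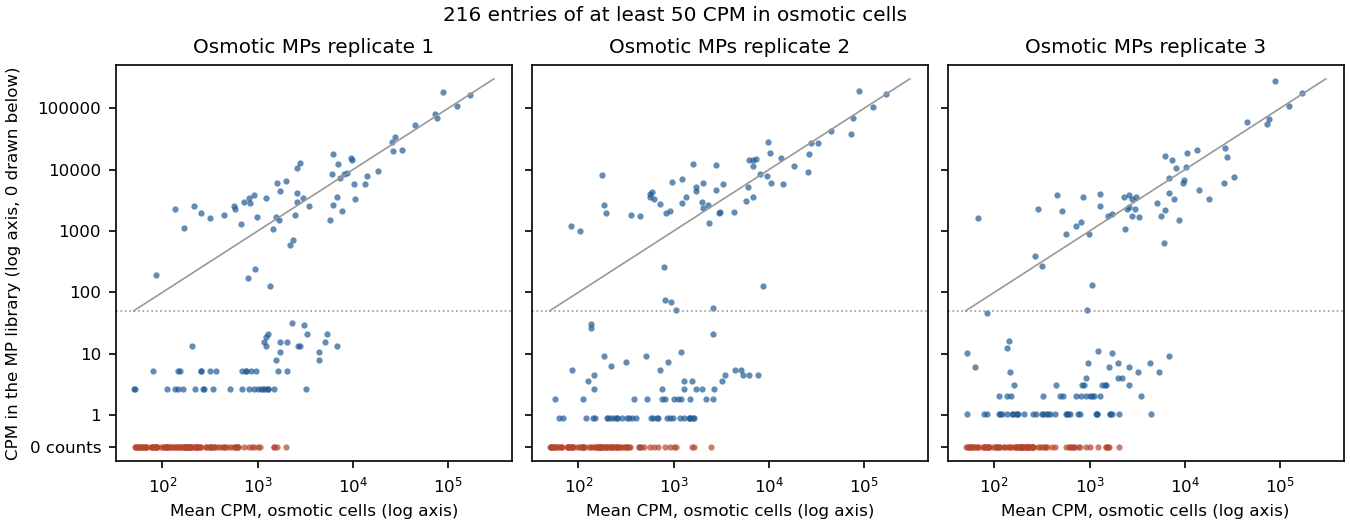
CPM in each osmotic MP library (vertical log axis, entries without a count drawn at the bottom in red) against the mean CPM of the 3 osmotic cell libraries (horizontal log axis) for the 216 entries of at least 50 CPM in cells. The solid line marks equal CPM and the dotted line 50 CPM. In each MP library most points lie at 500 CPM or more or below 20 CPM, with 9, 9 and 5 between in replicates 1, 2 and 3.

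**Figure D2:**
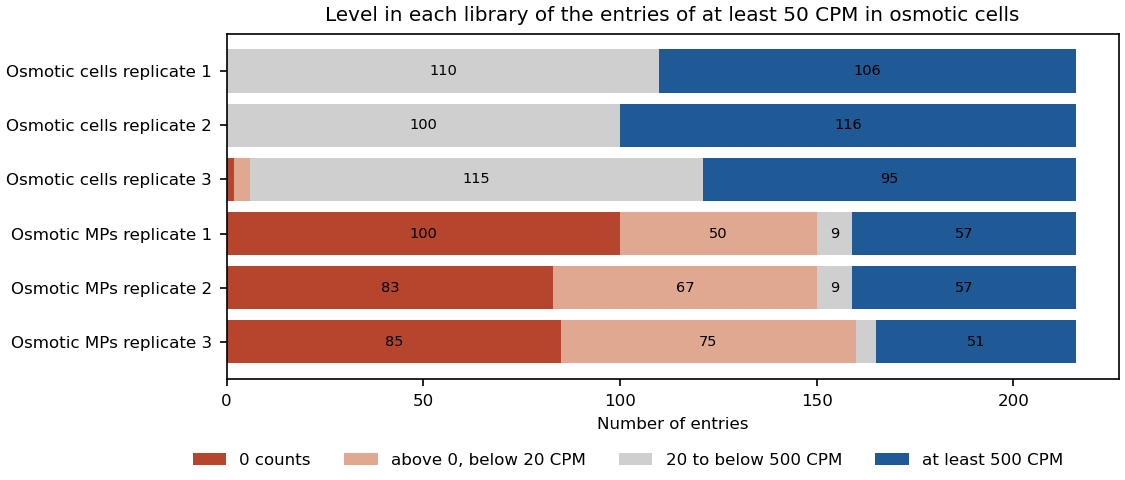
Number of the 216 entries at each level, by library: no count, above 0 and below 20 CPM, 20 to below 500 CPM, and at least 500 CPM. The middle grey part holds 100 to 115 entries in cell libraries and 5 to 9 in MP libraries. The entries were chosen by their mean in cells, which by itself limits low values there.

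Which miRNAs were present also differed between the MP libraries. At 50 CPM or more there were 65, 70 and 62 entries in MPs replicates 1, 2 and 3. All 3 libraries shared 33 of the 107 entries found at that level in any of them (30.8%). In cells 191 of 245 were shared by all (78.0%). Each pair of MP libraries shared 40 to 42 entries, and 15, 22 and 13 entries were at that level in MPs replicate 1, 2 or 3 alone. Of the 216 entries abundant in cells, 83 had a count in every MP library, while 44 were at 0 in 1 library, 43 in 2 and 46 in all 3. Thus 133 (61.6%) were at 0 in at least 1 MP library. At 200 CPM or more in cells the number was 67 of 146 (45.9%). Of the 78 entries at 1000 CPM or more in cells, 29 reached 50 CPM in all MP libraries, 16 in 2, 13 in 1 and 20 in none.

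The 33 entries at 50 CPM in all MP libraries held most of the counts. They made up 92.8, 87.1 and 94.1% of the counts in MPs and 84.1, 80.2 and 86.7% in cells. Their mean CPM was higher in MPs for 17 and lower for 16, with a median log2 ratio of 0.01. The median coefficient of variation between replicates was 41.2% in MPs and 18.8% in cells. For the 61 entries that averaged 50 CPM in both groups without reaching it in every MP library, it was 171% in MPs and 25.3% in cells. These 61 were picked by unlike MP libraries, with no such condition on single cell libraries. A large variation in MPs follows from that choice and is not a result.

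Entries were then tested one by one with edgeR's quasi-likelihood test on the 18 stressed libraries, with Benjamini-Hochberg adjustment over the 332 entries tested and calls at an adjusted p under 0.05. In MPs 10 entries were higher (3.01% of those tested) and 161 lower (48.5%). Without the filter on low counts, 646 entries were tested and the balance turned, with 11 higher and 6 lower. That filter works by group, so an entry can pass on the cells alone, and 127 of the 332 had no count in any MP library. An entry rare in cells and high in a single MP library can fail it, as hsa-miR-4492 did at 1598 CPM. The balance of higher and lower calls thus depends on which entries were tested. At an unadjusted p under 0.05 there were 189 of the 332. The groups did not overlap, on CPM, for 6 entries higher in MPs (1.81%) and 212 lower (63.9%). The median fitted log2 fold change over all tested entries was -7.05, and the median log2 ratio of mean CPM, with groups at 0 set at their floor, was -4.31. The floor is 3 counts over a group's summed total, 1.22 CPM in MPs and 0.112 CPM in cells, and it covers counting error only. TMM scaling, used in the test, places MPs higher against cells than CPM does: with library size alone, log2 fold changes shifted by -0.72 at the median. Fitted values near 0 are therefore given below with their CPM.

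Calls and detection ran together. All 161 lower entries were below 50 CPM in every MP library, 89 of them with no count in any. None of the 33 entries at 50 CPM in all MP libraries was called lower and 3 were called higher. Of 24 entries at that level in 2 MP libraries 2 were called, and of 45 in 1 library 4 were called, all higher. The number of calls moved with the libraries and the entries tested. It was 101, 1 and 41 without MPs replicate 1, 2 or 3, and 97, 108 and 136 without cells replicate 1, 2 or 3, and the 1 call left without MPs replicate 2 was cgr-let-7b. These fits also tested more entries, 354 to 415, since the filter passed more of them. With the 332 entries held the same, the numbers were 126, 89 and 74 without MPs replicate 1, 2 or 3 and 120, 126 and 144 without cells replicate 1, 2 or 3.

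The let-7 family, which restrains growth-promoting genes such as Ras in many animal tissues, was the bulk of both fractions. Its guide entries took 54.0, 49.0 and 61.9% of the counts in cells and 61.5, 62.6 and 74.0% in MPs. The MP mean was 11.1 percentage points higher (66.0 ± 6.91 against 54.9 ± 6.50, SD, n = 3 each), but MPs replicate 1 lay below cells replicate 3, and the exact two-sided permutation p was 0.2, where 0.10 is the smallest possible. Among hamster-named entries alone the shares were 48.8, 44.6 and 56.7% in cells and 58.7, 59.2 and 70.7% in MPs. There the groups did not overlap, and the exact two-sided permutation p was 0.1. Of 11 let-7 guide entries tested, 2 were called higher (background 3.01%) and 2 lower (background 48.5%). The 9 guides at 50 CPM in all MP libraries include miR-98, which belongs to the family.

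The most abundant entry in MPs was cgr-let-7b. It stood at 106211, 65612 and 94773 CPM in cells and at 185675, 191574 and 279592 CPM in MPs. Every MP library was above every cell library, and the ratio of means was 2.46. The log2 fold change was 2.11 ± 0.36 (SE, adjusted p = 0.0022, edgeR quasi-likelihood test), and it was 1.30 with library size alone. It was called with each of the 6 libraries left out in turn.

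The other abundant let-7 guides were close to equal on CPM. For mmu-let-7c-5p the cells held 165697, 141938 and 197233 CPM and the MPs 164272, 171022 and 178511 CPM, and the groups overlapped. It was called higher at 0.81 ± 0.31 (SE, log2, adjusted p = 0.0356, edgeR quasi-likelihood test), yet with library size alone the value was 0.03 and the call was lost, as it was without MPs replicate 2 or 3 or cells replicate 2 (0.97, 0.75 and 0.67). For cgr-let-7a the cells held 118221, 114379 and 137339 CPM and the MPs 107390.0, 106018 and 110485 CPM, so every MP library was lower. Its fitted log2 fold change of 0.60 ± 0.35 (SE, adjusted p = 0.15, edgeR quasi-likelihood test) has the opposite sign, and with library size alone it was -0.19. Direction for let-7a thus depends on the scaling.

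The MP values of cgr-let-7f were 68745, 68360.2 and 67047 CPM, against 66049, 79372 and 85176 CPM in cells. Its coefficient of variation was 1.31% in MPs and 12.8% in cells, and that of cgr-let-7a was 2.12% and 9.97%. Both guides varied less between MP libraries than between cell libraries, whereas at the median of the 33 entries the variation was larger in MPs. For cgr-let-7d-5p the MPs held 53563, 42884 and 58941 CPM and the cells 44870.3, 39582 and 49960.5 CPM, and for cgr-let-7g-5p the MPs held 20341, 18189.5 and 22355 CPM and the cells 19302, 27542 and 32698 CPM. Neither entry was called and both overlapped. The 2 lower calls were minor versions: cgr-let-7c at 118, 149 and 252 CPM in cells and 0, 0 and 1.03 CPM in MPs, and mmu-let-7j at 95.6, 112 and 130.3 CPM in cells and 0, 1.81 and 2.06 CPM in MPs.

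**Figure D3:**
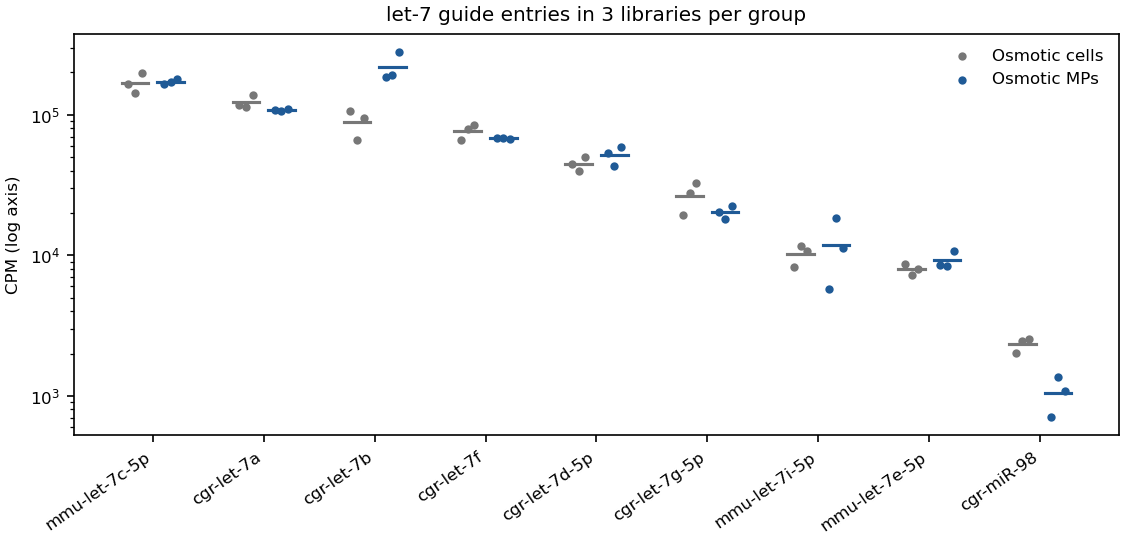
CPM (log axis) of the 9 let-7 guide entries at 50 CPM in all osmotic MP libraries, with 3 points per group and a line at the group mean; cells are grey and MPs blue. cgr-let-7b lies higher in all MP libraries, from 185675 to 279592 CPM against 65612 to 106211 CPM in cells, while cgr-let-7a and cgr-let-7f lie close together in MPs.

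The passenger arms of let-7 differed in level. In MPs cgr-let-7d-3p held 18026, 14389.6 and 16615 CPM, all above its 6009, 4609 and 7735 CPM in cells. Its log2 fold change was 2.19 ± 1.12 (SE) and was not called (adjusted p = 0.104, edgeR quasi-likelihood test). By contrast mmu-let-7a-1-3p, at 272, 517 and 511 CPM in cells, and mmu-let-7f-1-3p, at 36.1, 90.3 and 56.7 CPM, had no count in any MP library. Both were called lower, 2 of the 6 passengers tested, against a background of 48.5%.

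Outside let-7, the most abundant entries of the cells were also the most abundant of the MPs. The 10 highest took 68.8% ± 4.09 of counts in cells and 77.0% ± 5.53 in MPs (SD, n = 3). Both sets held 6 let-7 guides, the growth-linked cgr-miR-92a-3p, cgr-miR-21-5p, which is tied to growth and survival, and cgr-miR-320a, which is made without Drosha from its own transcript. The cells added cgr-miR-23a-3p and the MPs cgr-miR-423-5p. None of these 5 was called.

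The values of cgr-miR-92a-3p were 82318, 74944 and 61305 CPM in cells and 80717, 38064 and 55648 CPM in MPs. Those of cgr-miR-21-5p were 35663, 46100.3 and 15927 CPM in cells and 20478, 26988 and 7642 CPM in MPs. In both fractions replicate 3 held the least miR-21, and the ranges overlapped. For cgr-miR-320a the cells held 31214, 25439 and 26695 CPM and the MPs 34036, 27066 and 15750.1 CPM. For cgr-miR-23a-3p, which lies in a cluster with miR-27a and miR-24, the cells held 22149.9, 29977 and 24642 CPM and the MPs 28449, 9159 and 5958 CPM. MPs replicate 1 was within the range of the cells and the others were below it. For cgr-miR-423-5p the MPs held 14099, 28512 and 6844 CPM against 14257, 9338 and 5657 CPM in cells, with a log2 fold change of 1.53 ± 0.76 (SE, adjusted p = 0.0974, edgeR quasi-likelihood test).

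Other entries kept in all MP libraries included cgr-miR-191-5p, at 5748, 15501 and 21223 CPM in MPs and 12152, 14762 and 13411 CPM in cells. The p53-induced family member cgr-miR-34b-3p held 7318, 15022 and 14347 CPM in MPs and 5615, 5832 and 10240.2 CPM in cells. Both overlapped between fractions. For mmu-miR-26a-5p every MP library was below every cell library, at 7936, 5801 and 4734 CPM against 14029.9, 17239 and 10967 CPM, and for mmu-miR-30d-5p likewise, at 9487, 11539 and 3267 CPM against 18472, 22503 and 13324 CPM. Neither was called.

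Abundant entries were missing from single MP libraries. There were 19 entries at 0 in exactly 1 MP library that averaged at least 50 CPM in the other MP libraries, 6 at 0 in MPs replicate 1, 9 in replicate 2 and 4 in replicate 3. Only 5 of them reached 50 CPM in both other libraries, and 14 did so in 1. The passenger mmu-let-7b-3p held 1638, 0 and 266 CPM in MPs and 262, 265 and 412 CPM in cells. The miR-30 member cgr-miR-30b-5p held 1720.4, 0 and 1739 CPM in MPs and 1353, 2071 and 1227 CPM in cells, and mmu-miR-674-5p held 1818, 0 and 2240.3 CPM in MPs and 2146, 2387 and 2791 CPM in cells. MPs replicate 2, where these 3 had no count, was the deepest MP library, with 1103990 counts. cgr-miR-146b-5p, of a family that dampens inflammatory signalling, held 3401, 7122 and 0 CPM in MPs against 1470.1, 1375 and 835 CPM in cells, so it was above all cell libraries in MPs replicates 1 and 2 and without a count in replicate 3.

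Further entries were high in 1 MP library and at or near 0 in the others. cgr-miR-23b-3p held 0, 8295 and 1.03 CPM in MPs against 128, 236 and 169 CPM in cells. mmu-miR-149-5p held 0, 4344 and 1.03 CPM against 657, 670.1 and 469 CPM, and cgr-miR-322-3p, the rodent form of miR-424, held 0, 2794 and 2.06 CPM against 583, 797 and 783 CPM. These 3 were high in MPs replicate 2, as was cgr-miR-330 at 0, 1762 and 3.08 CPM. MPs replicate 1 alone was high for cgr-miR-484 at 2524, 0 and 1.03 CPM, cgr-miR-1306-5p at 1974, 0 and 1.03 CPM and cgr-miR-574 at 1837, 0 and 1.03 CPM. For mmu-miR-99a-5p the values in MPs were 1488, 0 and 1.03 CPM, and for cgr-miR-378-3p, which is encoded within a gene of energy metabolism, 5.29, 2410.3 and 0 CPM. In the cells these entries varied much less, for example cgr-miR-484 at 529, 629 and 543 CPM. They were picked for unlike values in MPs and not in cells, so this contrast follows from the choice.

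**Figure D4:**
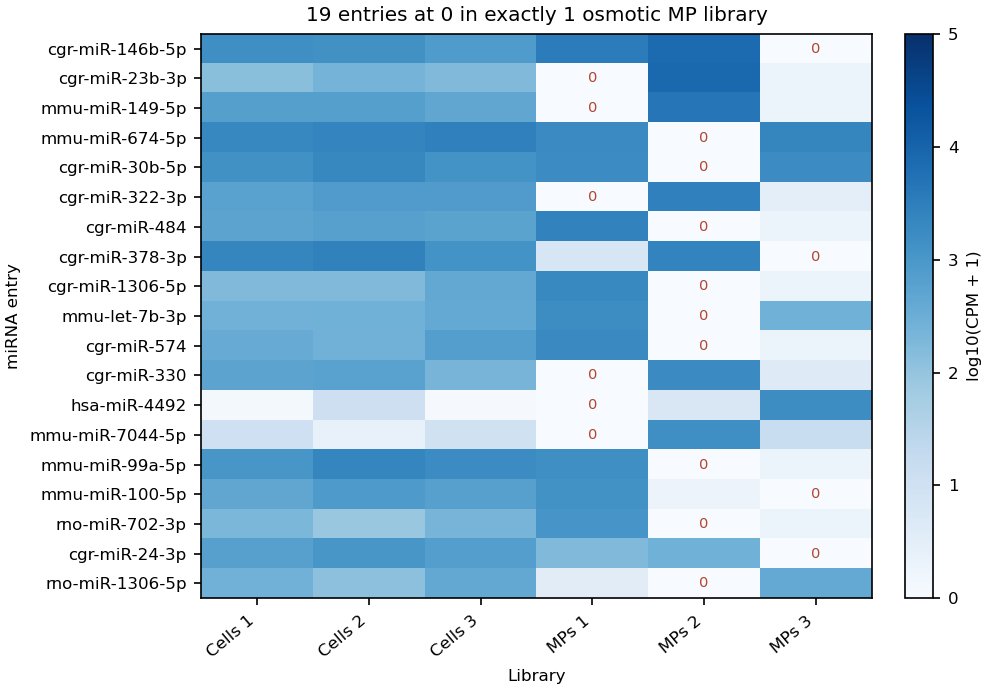
log10(CPM + 1) of the 19 entries at 0 in exactly 1 osmotic MP library and at least 50 CPM in the mean of the other MP libraries, in the 6 libraries; a red 0 marks no count. The zeros fall in MPs replicate 1 for 6 entries, replicate 2 for 9 and replicate 3 for 4.

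A single MP library reached 50 CPM for 50 entries, and 41 of these were above every cell library there. mmu-miR-26b-5p held 5.29, 6382 and 7.19 CPM in MPs against 791, 1040.5 and 1052 CPM in cells. cgr-miR-106b-3p held 2.64, 3.62 and 3997 CPM against 1183, 1414 and 1261 CPM, and cgr-miR-196a-5p, encoded in a Hox cluster, 5.29, 0.906 and 3532 CPM against 872, 861 and 817 CPM. The group means of cgr-miR-106b-3p, 1334 in MPs and 1286 CPM in cells, were alike although no MP library resembled a cell library. Means of such entries are set by 1 library, and none was called lower.

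Some of these miRNAs also have entries under other species names. Summed over species, miR-149-5p held 2955, 4349.7 and 1215 CPM in MPs against 1323, 1433 and 1209.99 CPM in cells, so no MP library was without it. For miR-24-3p the sums were 6149.6, 12429 and 6.17 CPM in MPs, and for miR-23b-3p 0, 8303 and 4.11 CPM, so these stayed near 0 in single libraries. Over all 189 summed names at 50 CPM in cells, 114 (60.3%) were at 0 in at least 1 MP library, close to the 61.6% of entries. In the test of 274 summed names, 11 were higher (4.01%) and 126 lower (46.0%). Among the 11 was let-7a-5p at a log2 fold change of 0.95 ± 0.33 (SE, adjusted p = 0.028, edgeR quasi-likelihood test), although its CPM was lower in every MP library than in every cell library, as given above for cgr-let-7a.

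Ranked by fitted log2 fold change, which a group at 0 inflates, the 12 lowest called entries of at least 50 CPM in cells had no count in any MP library. By the ratio of mean CPM with groups at 0 at the floor, cgr-miR-148b-3p (log2 ratio -10.34), cgr-miR-7a (-10.26) and others with a few counts in MPs lay below them. cgr-miR-31-5p, known from studies of tumour spread, held 1007, 1304 and 407 CPM in cells and was at least 741-fold lower in MPs against the floor of 3 counts over the summed MP total. The bound for mmu-let-7a-1-3p, whose cell values are given above, was at least 355-fold. For hsa-miR-12135, a name on the list of possible fragments of other RNAs, it was at least 281-fold, from 416, 447 and 166 CPM in cells. rno-miR-222-3p held 339, 400.4 and 218 CPM in cells and was at least 261-fold lower. hsa-miR-7-5p, at 213, 529 and 173 CPM, was at least 249.7-fold lower. The others named by the fixed rule were mmu-miR-203-3p, cgr-miR-15b-3p, mmu-miR-350-3p, mmu-miR-1271-5p, cgr-miR-93-3p, cgr-miR-30e-3p and cgr-miR-340-3p, with bounds from at least 178-fold to at least 210.3-fold. The rule takes called entries only, and the adjusted p of these 12 ran from 0.00847 to 0.0249 in edgeR's quasi-likelihood test. Summed over species, miR-31-5p had 1.03 CPM in MPs replicate 3 and miR-222-3p had 18.5, 0.906 and 3.08 CPM, while miR-7-5p and let-7a-1-3p stayed at 0.

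Entries of higher level in cells were reduced to a few counts without reaching 0 in every MP library. mmu-miR-29a-3p, of a family that represses collagen genes, held 5172, 7218 and 3479.8 CPM in cells and 21.1, 4.53 and 5.14 CPM in MPs. Its log2 fold change was -8.23 ± 2.00 (SE, adjusted p = 0.00847, edgeR quasi-likelihood test). cgr-miR-103-3p, a regulator of insulin sensitivity and of Dicer, held 3404, 4305 and 1978 CPM in cells and 2.64, 3.62 and 5.14 CPM in MPs, with a log2 fold change of -8.81 ± 2.14 (SE, adjusted p = 0.00847, same test). cgr-miR-7a, which targets growth factor signalling, held 1472, 2267 and 743 CPM in cells and 0, 1.81 and 0 CPM in MPs. All 3 were far below the cells in every MP library.

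Families were read against the background of 48.5% lower calls. Lower calls were 8 of 12 tested for the growth-promoting miR-17-92 cluster, 6 of 9 for its paralogs miR-106b-25 and miR-106a-363, 8 of 12 for the cell cycle regulators miR-15 and miR-16, 5 of 9 for miR-30 and 4 of 5 for miR-29. They were 10 of 20 for miR-125, miR-100, miR-99 and miR-10, 7 of 11 for miR-23, miR-27 and miR-24, 4 of 5 for miR-221 and miR-222, which target cell cycle inhibitors, 3 of 3 for miR-103 and miR-107, 1 of 2 for miR-148 and miR-152, 4 of 5 for miR-199 and 5 of 8 for miR-28, miR-151 and miR-708. For miR-320 they were 1 of 4, for miR-34 with miR-192, miR-194 and miR-215, 2 of 7, for miR-21 0 of 1 and for miR-181, which acts in lymphocyte signalling, 0 of 7. None of these families held a higher call. Within miR-320, hsa-miR-320c held 2297, 4021 and 886 CPM in MPs and 677, 573 and 463 CPM in cells, higher in every MP library, but was not called (adjusted p = 0.154, edgeR quasi-likelihood test). Species versions of a miRNA count as separate members, as with cgr-miR-222-3p, mmu-miR-222-3p and rno-miR-222-3p, all called lower. Several lists are small, and nothing particular to a family is read from these counts. Median log2 ratios of mean CPM, with groups at 0 at the floor, were -5.91 for miR-17-92, -5.54 for miR-29, -7.63 for miR-221 and miR-222, -7.20 for miR-103 and miR-107 and -2.13 for miR-181, against -4.31 for all tested entries.

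Some clusters kept together in MPs and others did not. In the hamster RefSeq annotation (assembly CriGri-PICRH-1.0), the 6 genes of miR-17-92 lie side by side with no other gene between them, as do those of let-7d, let-7f and let-7a and those of let-7c and let-7b. Of the latter clusters, the guides of let-7d, let-7f, let-7a and let-7b were at 50 CPM or more in every MP library under their hamster names. The let-7c guide was so only under its mouse name, mmu-let-7c-5p. The hamster entry cgr-let-7c reached that level in no MP library and averaged 0.343 CPM in MPs. Within miR-17-92, cgr-miR-92a-3p was abundant in all MP libraries, while cgr-miR-17-5p held 1982, 2824 and 1207 CPM in cells and 0, 2.72 and 4.11 CPM in MPs, and cgr-miR-19b-3p 1258, 1830.3 and 463 CPM in cells and 2.64, 1.81 and 1.03 CPM in MPs. cgr-miR-20a was high in MPs replicate 1 alone, at 2511, 4.53 and 2.06 CPM. In the neighbouring genes of miR-23a, miR-27a and miR-24, cgr-miR-23a-3p was kept and cgr-miR-27a-3p held 13.2, 2.72 and 3.08 CPM in MPs against 2243, 3576 and 2039.7 CPM in cells. cgr-miR-221-3p held 29.1, 2057 and 3555 CPM in MPs and its neighbour cgr-miR-222-3p 2.64, 0 and 2.06 CPM, against 1142, 1351 and 509 CPM of the latter in cells. Members differed in level in cells as well. There cgr-miR-92a-3p averaged 72855 CPM and cgr-miR-17-5p 2004 CPM, and cgr-miR-23a-3p 25590 CPM and cgr-miR-27a-3p 2620 CPM. cgr-miR-24-3p averaged 790 CPM in cells, below cgr-miR-27a-3p, yet reached 50 CPM in 2 MP libraries. Whether members parted beyond their level in cells was not tested.

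The arms of a hairpin also parted. There were 25 hamster hairpins with both arms at 50 CPM in cells. For 13 the more abundant arm reached 50 CPM in at least 1 MP library and the other in none, for 7 of these in all MP libraries. The reverse held for 1, cgr-miR-350, both arms reached it for 3, and neither did for 8. Arms were ranked by their level in cells, and entries of higher level there reached 50 CPM in MPs more often. All MP libraries reached it for 14.8% of the 216 entries at 50 CPM or more in cells. At 1000 CPM or more in cells it was 29 of 78. Such a split between arms can follow from level alone, and whether arms parted beyond that was not tested. cgr-miR-92a-5p, at 4903, 4907 and 3312 CPM in cells, held 10.6, 5.43 and 1.03 CPM in MPs (log2 fold change -8.88 ± 2.62, SE, adjusted p = 0.0148, edgeR quasi-likelihood test). cgr-miR-25-3p was kept at 15151, 7867 and 5947 CPM in MPs while cgr-miR-25-5p, at 313, 163 and 112 CPM in cells, had no count. cgr-miR-191-3p, at 99.3, 89.8 and 65.9 CPM in cells, also had none.

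Higher calls outside let-7 concerned rare entries of the cells. hsa-miR-3168 held 132, 209 and 206 CPM in MPs and 0, 0.241 and 1.45 CPM in cells, the only such entry above 50 CPM in all MP libraries. Its log2 fold change was 8.91 ± 2.21 (SE, adjusted p = 0.00847, edgeR quasi-likelihood test), with an adjusted p of 0.0508 without MPs replicate 2. hsa-miR-6089 held 7.93, 10.9 and 396 CPM in MPs and at most 2.02 CPM in cells; without MPs replicate 3 its log2 fold change of 8.32 ± 2.75 (SE, adjusted p = 0.0217, edgeR quasi-likelihood test) was 4.35 and was not called, and the call was also lost without MPs replicate 2 or cells replicate 1 or 2. mmu-miR-6238 held 7.93, 4.53 and 25.7 CPM against at most 0.362 CPM. The groups did not overlap for these 3, and all 3 are on the list, read below, of names that may overlap fragments of other RNAs.

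The remaining 5 rested on 1 or 2 MP libraries and overlapped with the cells. hsa-miR-4497 held 2.64, 687 and 977 CPM in MPs, mmu-miR-2137 1578, 7.25 and 499 CPM, hsa-miR-4508 5.29, 1839 and 8.22 CPM, mmu-miR-7044-5p 0, 1486 and 13.4 CPM and hsa-miR-1321 0, 0 and 87.4 CPM. In cells none of the 5 was above 25.6 CPM. hsa-miR-4492, which did not pass the filter on low counts, held 0, 4.53 and 1598 CPM. Of 13 tested entries on a list of names known or thought to overlap rRNA, tRNA or similar fragments, 6 were higher (background 3.01%) and 5 lower (background 48.5%). The 6 were hsa-miR-3168, hsa-miR-6089, mmu-miR-6238, hsa-miR-4497, hsa-miR-4508 and mmu-miR-2137. This list was chosen with earlier results of these data known, so its counts do not test for enrichment. The lower ones include hsa-miR-7977 at 583, 680.1 and 471 CPM in cells and 0, 0.906 and 1.03 CPM in MPs. The list took 0.406% of counts in cells and 0.376% in MPs.

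Of the miRNAs that have served to engineer CHO cells, 14 of 22 tested entries were lower and none higher, with the background at 48.5% and 3.01%. miR-23a-3p and miR-30d-5p, given above, were kept in all MP libraries. cgr-miR-30a-5p held 1407, 1611 and 607 CPM in cells and 13.2, 10.9 and 1.03 CPM in MPs. miR-200b and miR-717, which repress the osmotic factor Nfat5 in mouse kidney, had no count in the 6 libraries. Of 5 tested entries with repeat-like names, none was called.

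Markers of other cell types were rare in both fractions. Of the listed markers, 10 entries had a count, and miR-122, miR-124, miR-142, miR-223, miR-451, miR-126, miR-143, miR-145 and miR-375 had none. Their summed share was 0.0959, 0.0826 and 0.144% of counts in cells and 0.170, 9.06e-05 and 0.0880% in MPs. Most of it was cgr-miR-486-5p, a miRNA of the red cell lineage, at 842, 717 and 1426 CPM in cells and 1702, 0.906 and 879.7 CPM in MPs.

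In ammonia culture more of the cells' miRNAs were found in every MP library. Of 203 entries at 50 CPM in ammonia cells, 79 (38.9%) were at 0 in at least 1 ammonia MP library, and 74 (36.5%) reached 50 CPM in all, where the osmotic figures were 61.6% and 14.8%. These ammonia MP libraries were deeper, at 1962086 to 2967003 counts, and the part of depth in this difference was not tested. Of the 33 entries at 50 CPM in all osmotic MP libraries, 32 were so in all ammonia MP libraries, which had 76 such entries. Whether the MP minus cell difference changed with culture was tested in the same edgeR fit, where 1 of 332 entries passed (0.301%) and 89 had an unadjusted p under 0.05. DESeq2 called 53. Without any 1 of the 6 osmotic libraries or of the ammonia cell libraries none passed, and without ammonia MPs replicate 2 or 3 there were 19 and 2.

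That entry was rno-miR-222-3p (adjusted p = 0.0483, edgeR quasi-likelihood test). In ammonia culture it held 38.5, 42.8 and 79.8 CPM in cells and 559, 628 and 4.28 CPM in MPs, while osmotic MPs had none. Summed over species no name passed. mmu-miR-29a-3p held 3079.5, 3541 and 2696 CPM in ammonia cells and 2247, 2379 and 1871 CPM in ammonia MPs, so that all ammonia MP libraries were near the cells and all osmotic ones at 21.1 CPM or less. cgr-miR-151-3p held 1624, 682 and 1077 CPM in ammonia MPs and 5.29, 0.906 and 1.03 CPM in osmotic MPs. cgr-miR-28-3p held 1411, 1789.9 and 674 CPM in ammonia MPs and 2.64, 0 and 2.06 CPM in osmotic MPs. The adjusted p of these 3 was 0.0779 in the same test.

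The other entries with the lowest p for a culture difference were cgr-miR-146b-3p, mmu-miR-296-3p, cgr-miR-7a, cgr-miR-324-3p, cgr-miR-31-5p and cgr-miR-30e-3p. cgr-miR-7a held 415, 1439 and 234 CPM in ammonia MPs. cgr-miR-31-5p held 18.5, 0 and 913 CPM and cgr-miR-30e-3p 1458, 0 and 0 CPM, so single ammonia libraries set their difference. cgr-let-7b was also higher in every ammonia MP library, at 136460, 189548 and 176518 CPM against 106162, 86066 and 109588 CPM in ammonia cells. Its difference between cultures was 1.10 ± 0.49 (SE, log2) and did not pass (adjusted p = 0.146, edgeR quasi-likelihood test). hsa-miR-3168 held 82.6, 88.2 and 57.2 CPM in ammonia MPs and 4.68, 2.19 and 4.20 CPM in ammonia cells.

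**Figure D5:**
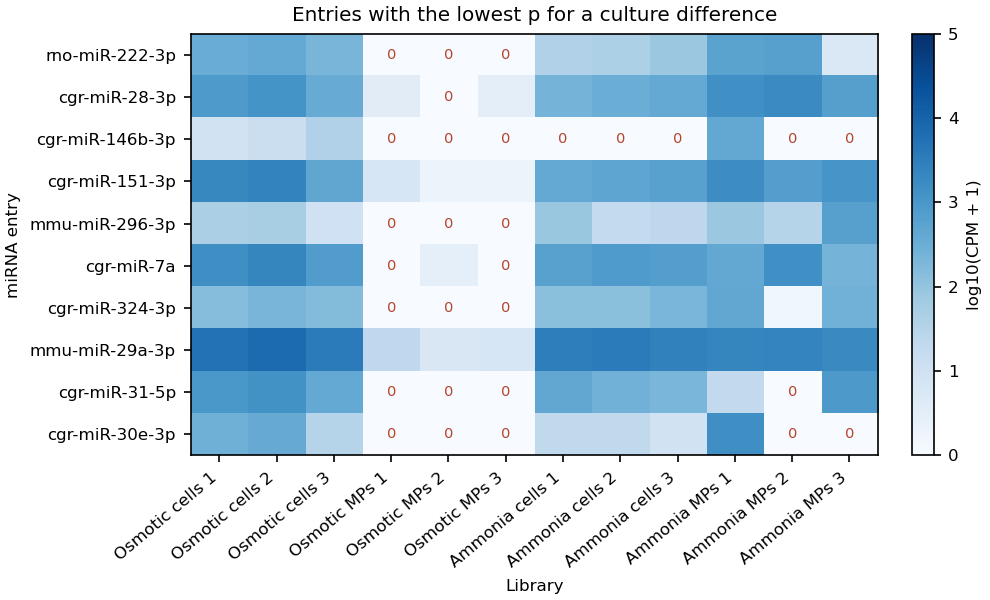
log10(CPM + 1) of the 10 entries with the lowest p for a difference between cultures, in the osmotic and ammonia libraries; a red 0 marks no count. Osmotic MPs are at or near 0 throughout, while all 3 ammonia MP libraries are above 200 CPM for mmu-miR-29a-3p, cgr-miR-151-3p, cgr-miR-28-3p and cgr-miR-7a and the other entries vary between ammonia MP libraries.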

How the data were processed

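Small RNA libraries of CHO-K1 cells and MPs were compared from read counts per mature miRNA, deposited by the authors as raw counts in 1 table with the CPM of each library beside them. The authors' deposited CPM, recorded as a signal because they carry an effective library size, served only for an alternative scaling; CPM in the text are counts over the library total. Per the submitters' processing notes, FastQC 0.10.1 and cutadapt 2.8 were used and the builds listed are GRCm38, Rnor_6.0 and GRCh38; no source used here names the counter. A second deposited table, with 54 columns of per-sample values, was not used here.

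Groups came from the sample labels. The main test was edgeR 4.0.16 (R 4.3.3), a quasi-likelihood fit of 18 libraries with TMM scaling and filterByExpr, with Benjamini-Hochberg adjustment and calls under 0.05. DESeq2 1.42.0, limma-voom 3.58.1, other scalings and filters, sums over species, other sets of libraries, a replicate block and leaving out each library were alternatives. Exact permutation tests over 6 libraries were two-sided. Descriptions used Python 3.11.15, numpy 2.4.6, pandas 2.3.3 and scipy 1.17.1. Library totals of 378397 to 1103990 counts in MPs make 1 count worth 0.906 to 2.64 CPM. Reads carry no stated molecular identifiers, so floors cover counting error only, and p-values measure the spread between these samples.

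The fit was tested on simulated data: of 329 entries, 50 of 50 changed by -4 (log2), 47 of 48 by -2, 49 of 50 by 2 and 49 of 49 by 4 were called, and 4 of 132 unchanged ones. The simulated replicates were given a much smaller spread than the real ones, whose fitted common biological coefficient of variation was 1.38. The simulation therefore checks that the fit runs correctly and does not give its power for these data.

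Named entries are the 12 highest and 12 lowest called entries with a mean of 50 CPM in either group and no overlap (3 were found higher), the 10 most abundant of each group, called or leading members of each list, the 15 highest of those at 0 in exactly 1 MP library, and the 10 with the lowest p for a culture difference. Others were chosen after their values were seen. The groups compared, the lists and the rules were chosen with earlier results of these data known.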

Additional observations from a re-analysis of the deposited data

Results flagged for a closer look

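The difference between MPs and cells differed between osmotic and ammonia culture for rno-miR-222-3p, by the interaction test in the edgeR quasi-likelihood fit (adjusted p = 0.0483). It held 339, 400.4 and 218 CPM in osmotic cells and no count in osmotic MPs, and 38.5, 42.8 and 79.8 CPM in ammonia cells and 559, 628 and 4.28 CPM in ammonia MPs. Its near-identical versions cgr-miR-222-3p and mmu-miR-222-3p differed in the same direction but did not pass this test. Their differences were -9.29 ± 2.88 and -8.23 ± 2.79 (SE, log2, adjusted p = 0.0779 for each, edgeR quasi-likelihood test). That of rno-miR-222-3p was -15.8 ± 3.36. The part of read assignment between these versions was not tested.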

How the results depend on the processing

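The 171 calls became 155 with RLE scaling, 183 with library size alone, 159 with the authors' sizes, 124 at a mean of 50 CPM, 131 in DESeq2, 191 with 6 libraries, 219 with 27 and 188 in limma-voom, but 17 without the filter on low counts, where 646 entries were tested and 11 were higher and 6 lower, 10 of the 17 shared with the 171. Leaving out 1 library gave 1 to 136, lowest without MPs replicate 2; with the tested entries held the same, an alternative chosen after seeing the data, it was 74 to 144, with 126, 89 and 74 without MPs replicate 1, 2 or 3. The labels do not say whether cell and MP libraries of the same replicate number came from 1 culture. Correlations of their deviations from the group means were -0.08, 0.02 and -0.04. With MP libraries as variable as these, such correlations cannot exclude pairing. With a replicate block 164 entries were called for MPs against cells and 0 for the difference between cultures. That difference had 1 call, 0 with RLE scaling, the authors' sizes or sums over species, 48 without the filter, 52 at 50 CPM, 53 in DESeq2 and 0 to 19 with a library left out. Entries at 0 in at least 1 MP library numbered 67 in place of 133 at 200 CPM in cells, where 146 and not 216 entries qualify. With library size alone, the log2 fold change turned to -0.19 for cgr-let-7a, -0.18 for cgr-let-7f, -0.39 for cgr-let-7g-5p, -0.12 for cgr-miR-320a and -0.33 for cgr-miR-92a-3p. That of cgr-miR-21-5p (-0.02) became 0.26 with RLE scaling, 1.68 without the filter and 0.26 in DESeq2, and -0.32 to 0.33 with a library left out (0.31, 0.090 and 0.19 without MPs replicate 3 and cells replicates 1 and 2 with the same entries tested). That of cgr-miR-23a-3p (-0.05) became 0.25 with RLE scaling, 0.029 with the authors' sizes, 1.65 without the filter and 0.25 in DESeq2, and -0.84 to 0.33 with a library left out (0.21, 0.27 and 0.030 without MPs replicates 2 and 3 and cells replicate 3 with the same entries tested). None of these 7 entries was called in the main test or under the settings just named, though limma-voom called cgr-let-7a higher (0.74, adjusted p = 0.0274), and the causes of these changes were not tested. Over 25 named entries and 550 alternatives, 450 kept direction and side of the threshold, 72 lost the call, 4 gained one and 24 changed sign. The let-7 share difference ranged from 7.11 to 14.6 points and the detection difference at equal depth from -270 to -232 with a library left out. At 378397 counts, 1 count in MPs replicate 1 is worth 2.64 CPM, and a count of 0 there allows a level of up to 7.93 CPM.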
